A study of Arabidopsis thaliana with 31 samples.

Results

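Genes with long used 3′-UTRs are described here from poly(A)-seq of wild-type Arabidopsis, which reads the place where each mRNA ends and its tail begins. Genes were chosen by their measured 3′ ends: a gene was included when the median 3′ end of its reads lay at least 450 nt after the stop codon of the protein-coding transcript with the most reads, with at least 20 reads on that transcript. Of 7993 measured genes, 200 met this rule (2.50%). In 8 of them reads ran past the end of the annotated transcript, so the distance could not be placed, and among the 7930 genes without such reads 192 were included (2.42%). These values were used to choose the genes, so the lengths are given as a description with no test.

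The series holds 31 samples of Col, *atpab* mutant and AtPAB complementation line seedlings, and 1 of them was analysed here. It is the poly(A)-seq library of Col, the wild type, made from whole 2-week-old seedlings grown on plates, with no treatment other than the growth conditions. There was 1 library and no comparison of conditions, so no value has a replicate error. The alignments hold 2786281 reads, of which 2661059 lay on the strand of the named transcript. RBCS1A and CAB2, a Rubisco subunit and a light-harvesting protein of green tissue, had 44197 and 36891 reads. PYK10, a beta-glucosidase of roots and seedlings, had 2544 reads, and CRU1, a seed storage protein, had 0.

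The 3′-UTR runs from the stop codon to the site where the pre-mRNA is cleaved and the poly(A) tail is added. Cleavage factors recognise AAUAAA or related sequences shortly before that site, and in plants these sequences vary widely. RNA-binding proteins and small RNAs can act on the 3′-UTR, and a long 3′-UTR or an exon junction downstream of the stop codon can direct an mRNA to nonsense-mediated decay. The length therefore depends both on which stop codon and on which end is used. A read of this library had a median mapped length of 59 nt before its end, so the stop codon was taken from the annotation and not from the read.

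The length of most of these genes depended on which isoform was named. In 71 of the 192 genes, the same genomic end lay at least 450 nt after the stop codon of every annotated coding isoform that contains it (0.895% of the 7930 genes). In 54 of the 71 only 1 coding isoform contains the end, so no second isoform was compared, and in 17 several do. In the other 121 of the 192, the same end lay closer to the stop codon in at least 1 isoform. Their shortest used length over the isoforms had a median of 210 nt. The isoform with the shortest length has a later stop codon in 111 of the 121, and in the other 10, among them AT5G19590 and AT1G65270, it has the same stop codon and its 3′-UTR is spliced in another way. In 112 of the 121, part of the counted 3′-UTR is coding sequence in another isoform, as it is in 7 of the 71, among them HSD2, LUX, ECT2 and RbcX2. Reads that fit several isoforms equally cannot tell which one they came from. Bowtie2 then gives them a low mapping quality. In the 121 genes a median of 0% of the reads scored 10 or more, 100 of them had no such read, and the named isoform held a median of 51.0% of the gene's reads. In the 71 genes, a median of 96.8% of the reads scored 10 or more, although 15 of them, among them ECT2, AT1G33470 and AT1G49032, had no such read. Among genes with a single annotated coding transcript, where a single stop codon is annotated, 42 of 4967 were included (0.846%). The same choice can also hide a long 3′-UTR, since 158 of the 7738 other genes had an isoform with a used length of at least 450 nt that was not the one with the most reads. The counts of 192 and 71 genes depend on how identical reads are counted. With identical reads counted once, 118 of 5555 measured genes (2.12%) met the rule and 40 (0.720%) were long in every isoform. The 192 genes had a median of 25 distinct reads, against 30 in the other genes.

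**Figure D1:**
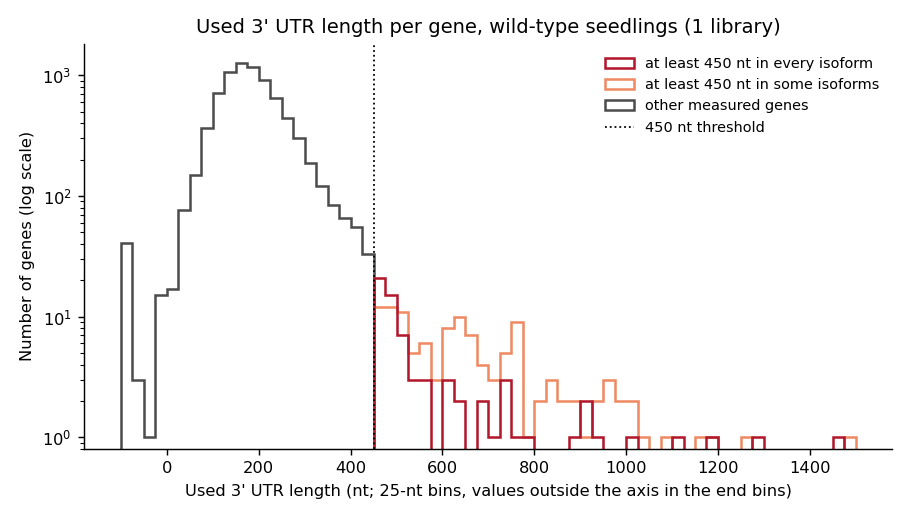
Number of genes (log scale) by used 3′-UTR length in nt, in 25-nt bins, for genes of at least 450 nt in every isoform, genes of at least 450 nt in some isoforms and the other measured genes; values outside the axis stand in the end bins. The other genes peak near their median of 178 nt, and both groups of long genes thin out above 450 nt, with 36 of the 71 and 24 of the 121 under 500 nt.

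**Figure D2:**
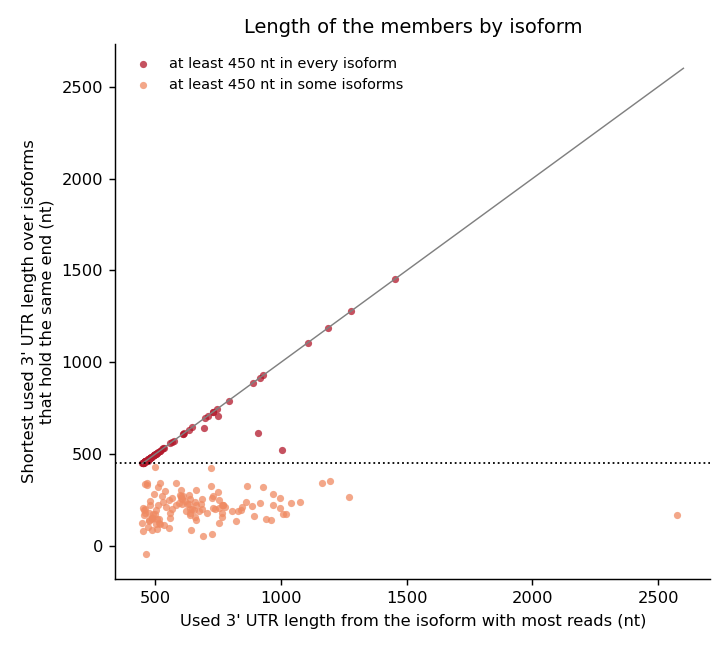
Used 3′-UTR length (nt) from the isoform with the most reads against the shortest length over the isoforms that hold the same end, with 1 point per gene. The 71 genes above the dotted line at 450 nt lie mostly on the diagonal, and in 54 of them only 1 isoform holds the end. The 121 genes below the line have a median of 210 nt on the vertical axis.

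The stretches of the genome that end at the most used 3′ end of 9 genes are shown to give the sequence before a long 3′-UTR ends. These are the genes long in every isoform with the most reads, 4 with AATAAA and 5 without it. Each line gives 30 nt in the direction of the mRNA from the RefSeq TAIR10.1 assembly, with T for U. Its last base is the most used read end after the tail was trimmed. A bases of the transcript next to the tail were trimmed with it, so the mRNA can end farther on. Capitals mark AATAAA or, where it is absent, the hexamer with 1 base changed that lies nearest to the end and at least 10 nt before it.
ERF3 (450 nt after the stop codon, chr1:18757152-18757181, minus strand): tctaAATAAAaaatctagaatctttttttc
AT2G32710 (485 nt, chr2:13875806-13875835, plus strand): ctcttttcAATAAAgacttatccttctctt
EBF1 (633 nt, chr2:10847385-10847414, minus strand): gagtattgAATAAAattctcatttcgttgt
AT1G49032 (486 nt, chr1:18138945-18138974, plus strand): tgttgttatgAATAAAatcctaatcttgcg
AT4G32020 (745 nt, chr4:15489337-15489366, plus strand): ctatctttaatattatcgaatttaagtttt
AT4G28240 (470 nt, chr4:13997509-13997538, minus strand): ttattgaggtaggtcctataattcatctta
AT5G21020 (510 nt, chr5:7139632-7139661, plus strand): ggatatgtttAATACAaaatttctcttgtg
HSD2 (1452 nt, chr3:17450517-17450546, plus strand): tactcatcaatgaaAATTAAtcttccagtg
EBF2 (533 nt, chr5:8794309-8794338, minus strand): actctctatTATAAAgctttcactgaacat

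All 9 stretches lie in the annotated 3′-UTR of their gene. In AT4G32020 and AT4G28240 the 30 nt shown held no hexamer within 1 base of AATAAA at that distance. In the 4 genes with AATAAA, 14 to 20 nt separated the hexamer from the end. EBF1, EBF2, AT2G32710, AT1G49032 and, in the text that follows, PIN3, BEH2, ECT2, MOS11, BGAL1, RbcX2, UPF1, the genes whose reads ran past the annotated end and the genes of lists made from product names were chosen after their values were seen.

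AATAAA was found before the end of the long 3′-UTRs at a share close to that of the other genes, while TTGTA was found at a larger share in the genes long in every isoform. AATAAA lay 10 to 35 nt before the most used end in 9 of the 71 genes long in every isoform (12.7%; 95% Clopper-Pearson interval, 5.96 to 22.7%). It did so in 26 of the 192 genes (13.5%; 9.04 to 19.2%) and in 952 of the 7738 other genes (12.3%; 11.6 to 13.1%). AATAAA or a hexamer with 1 base changed was found in that window in 42 of the 71 genes (59.2%; 46.8 to 70.7%) and in 49.5% of the other genes (48.4 to 50.7%). TTGTA, a U-rich sequence often found upstream of plant poly(A) sites, lay within the last 100 nt in 38 of the 71 genes (53.5%; 41.3 to 65.5%). It did so in 43.2% of the 192, in 37.2% of the 121 genes long in some isoforms and in 38.3% of the other genes (37.2 to 39.4%). Where the most used end lay less than 100 nt after the stop codon, this stretch included coding sequence. Motifs were searched as letters on the strand of the mRNA only, and a match is not a bound site.

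In the 71 genes long in every isoform, the used 3′-UTR had a median of 499 nt (95% interval of the median over genes, 481 to 533 nt) and ran up to 1452 nt, against a median of 178 nt in the other genes. The 121 genes long in some isoforms had a median of 636 nt, and all 192 one of 583.5 nt. The annotated 3′-UTR of the 71 genes had a median of 650 nt, against 288 nt in the other genes. The used end lay a median of 79 nt (60 to 123 nt) before the annotated end in the 71 genes, against 96 nt (94 to 98 nt) in the other genes. Genes with reads past the annotated end were left out, so a used end could only lie at or before it in either group. The annotated 3′-UTR could therefore not be shorter than the used one. Of the other genes, 13.3% had an annotated 3′-UTR of at least 450 nt. The values nearest the limit belonged to ERF3 and MC3 at 450 nt and CSLA02 at 451 nt, and, just outside it, to AT4G26940 at 449 nt, MPB2C at 448.5 nt and ATML1 at 448 nt.

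Among the 71 genes the longest 3′-UTR belonged to HSD2 (AT3G47350; chromosome 3, 17446818 to 17450742, plus strand), a hydroxysteroid dehydrogenase. This end lies in 1 of its 3 annotated coding isoforms, and 179 nt of the used 3′-UTR are coding sequence in another. Of its 430 reads, 324 ended from 1448 to 1482 nt after the stop codon (75.3%; 71.0 to 79.4%). A further 62 ended from 799 to 834 nt (14.4%; 11.2 to 18.1%), and the other 5 sites of HSD2 each held 0.465 to 3.02% of its reads. The most used base, at 1452 nt, held 307 reads, and 99.3% of the reads of HSD2 scored 10 or more in mapping quality. HSD2 thus had a main end far from the stop codon and a second one closer to it, both beyond 450 nt.

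LUX, which the annotation names PCL1 (AT3G46640; chromosome 3, 17183042 to 17186959, plus strand), is a transcription factor of the evening complex of the circadian clock. Most of its 3′ ends fell into 2 places far from each other. Of its 37 reads, 24 ended from 1273 to 1309 nt (64.9%; 47.5 to 79.8%) and 9 from 351 to 371 nt (24.3%; 11.8 to 41.2%). The median of 1278 nt therefore describes the larger share and not the gene as a whole. An intron is annotated 41 nt after the stop codon, and the 3′-UTR overlaps AT3G46650 on the opposite strand. Only reads on the strand of LUX were used.

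RR3 (AT2G41310; chromosome 2, 17221840 to 17224880, plus strand) is a response regulator of the cytokinin pathway. Of its 93 reads, 61 ended from 1185 to 1223 nt (65.6%; 55.0 to 75.1%) and 23 from 527 to 587 nt (24.7%; 16.4 to 34.8%). None ended within 450 nt of the stop codon. Of the reads of RR3, 60.2% scored 10 or more in mapping quality, although it has 1 annotated coding isoform. What lowered the score of the other reads was not tested, so the shares of the 2 sites are less certain. An intron is annotated 350 nt after the stop codon, and the 3′-UTR overlaps AT2G09250 on the opposite strand. U made up 26.5% of the used 3′-UTR of RR3, against a median of 35.3% over the 71 genes.

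**Figure D3:**
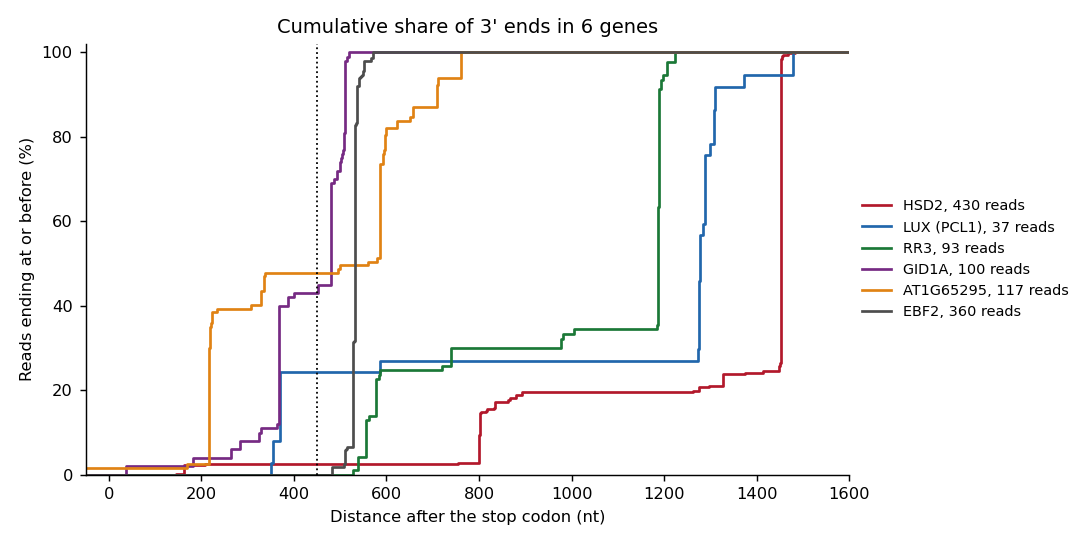
Cumulative share (%) of the reads of HSD2, LUX, RR3, GID1A, AT1G65295 and EBF2 that end at or before a distance in nt after the stop codon, with the dotted line at 450 nt. EBF2 rises in 1 step around its median of 533 nt, whereas GID1A and AT1G65295 have a step on each side of the line and LUX and RR3 have a smaller step far before their main one, at 351 to 371 nt and at 527 to 587 nt.

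EBF1 and EBF2 are the F-box proteins that target the ethylene transcription factor EIN3 for degradation, and their own 3′-UTRs are known as elements through which ethylene controls translation. EBF1 (AT2G25490) had 142 reads, of which 136 ended from 600 to 640 nt (95.8%; 91.0 to 98.4%). EBF2 (AT5G25350) had 360 reads, of which 353 ended from 509 to 570 nt (98.1%; 96.0 to 99.2%), and none within 450 nt. Both had a single main end, and of the 2 genes only EBF1 had AATAAA before it.

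ERF3 (AT1G50640), an ethylene-responsive transcriptional repressor, had 488 reads. Its main site held 437 of them (89.5%; 86.5 to 92.1%) over positions 356 to 464, and 336 reads ended at the base 450 nt after the stop codon. ERF3 met the rule with no margin, since 20.3% of its reads ended before 450 nt. BEH2, a relative of the brassinosteroid transcription factors BES1 and BZR1, had a median of 472 nt with 82 reads, 95.1% of them in its main site. PIN3, an auxin efflux carrier, had 86 reads and a median of 497 nt. Its main site, 497 to 539 nt, held 66 reads (76.7%; 66.4 to 85.2%), and 17.4% of its reads ended before 450 nt.

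GID1A (AT3G05120; chromosome 3, 1430363 to 1432844, plus strand), a gibberellin receptor, had ends on both sides of the limit. Of its 100 reads, 55 ended from 481 to 518 nt (55.0%; 44.7 to 65.0%) and 32 from 363 to 400 nt (32.0%; 23.0 to 42.1%). The 30 nt before the top end of each site are printed with the nearest hexamer within 1 base of AATAAA in capitals, where there is one.
Farther site (481 nt, chr3:1432739-1432768, plus strand): tctttttcattgtactctaatggattttac
Nearer site (368 nt, chr3:1432626-1432655, plus strand): taattagatatcTATAAAtatatatatttc
The site with more reads had no such hexamer at least 10 nt before its end in these 30 nt. Counted together, 43.0% of the reads of GID1A ended within 450 nt.

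Of the genes long in every isoform, AT4G32020 had the most reads. It encodes a protein that the annotation calls serine/arginine repetitive matrix-like, and it consists of 1 exon with 546 nt of coding sequence. Of its 1061 reads, 1025 ended from 660 to 785 nt (96.6%; 95.3 to 97.6%), with a median of 745 nt. Its annotated 3′-UTR has 1427 nt. AT5G21020, an uncharacterized protein with 129 nt of coding sequence, had 472 reads. Of these, 419 lay at the base 510 nt after the stop codon, its annotated end, beyond which no read was counted. Both had nearly all their reads in 1 site, and in both the used 3′-UTR was longer than the coding sequence. AT4G28240, a wound-responsive family protein, had 475 reads with quartiles of 470 and 517 nt, and 472 of them lay in a site of 415 to 625 nt. In 30.1% of its reads the last base left after trimming was A. Such an A can belong to the transcript or to the tail, so the exact end of these reads is less certain.

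**Figure D4:**
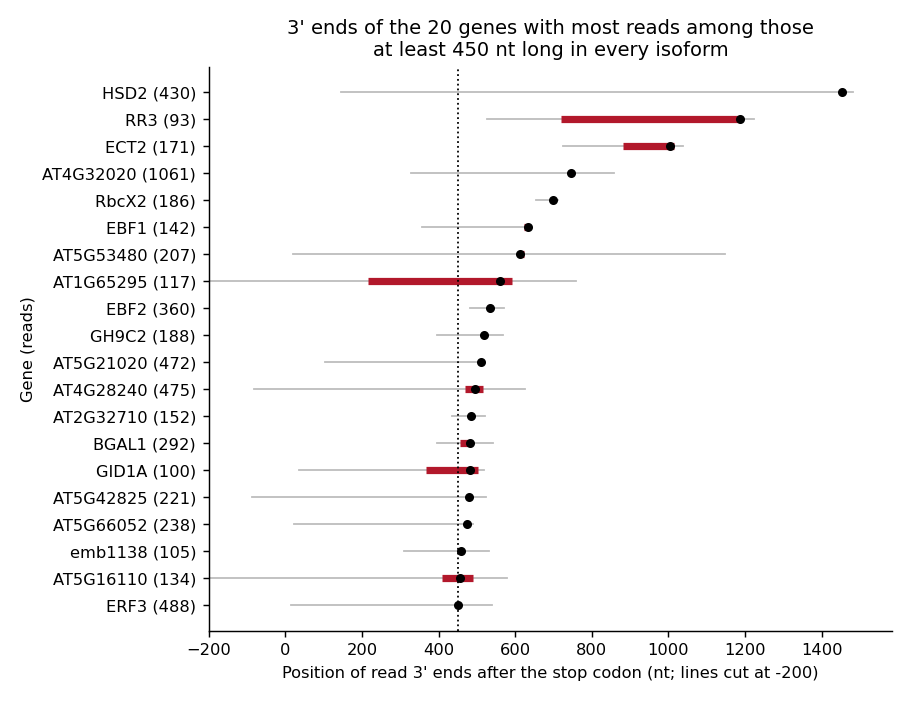
Position of the read 3′ ends in nt after the stop codon for the 20 genes with the most reads among those long in every isoform, with the number of reads after each name; the dot is the median, the thick bar the quartiles and the thin line the first to last end, cut at the edge of the axis. HSD2, RR3 and ECT2 have medians of at least 1005 nt, and the quartiles of AT1G65295, GID1A and AT5G16110 reach below 450 nt.

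A smaller share of the reads lay in the main site in the long 3′-UTRs. Ends within 24 nt of the next were joined into 1 site, and sites with at least 2 reads were counted. In the 71 genes a median of 80.8% of the reads lay in the main site (72.6 to 89.5%), against 95.0% (94.6 to 95.3%) in the other genes. A single site was found in 12 of the 71 (16.9%; 9.05 to 27.7%), against 38.4% (37.3 to 39.5%) of the other genes. The genes differ in depth, with a median of 39 reads in the 71 genes and 59 in the others, and the part of depth and of the length itself in this difference was not tested. The median over all 192 genes was 88.7%, and joining ends within 10 nt made it 70.0%.

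A large part of the reads of some genes ended within 450 nt. In the 71 genes, the median share of reads below the limit was 12.5% (7.14 to 24.2%), 23 genes had at least 25% of their reads there and 10 had none. AT1G65295, which the annotation names a ubiquitin carboxyl-terminal hydrolase, had 47.9% of its 117 reads below 450 nt. It had 43 reads from 216 to 233 nt (36.8%; 28.0 to 46.2%) and 40 from 560 to 623 nt (34.2%; 25.7 to 43.5%), shares that their intervals do not separate. AT1G80610 had 16 of its 66 reads at 346 to 349 nt and 50 at 398 to 458 nt, a site that lies across the limit. AT5G16110 had 26 of its 134 reads at 266 nt and 66 from 444 to 511 nt. In these 3 genes the length given by the median is thus 1 of several that were in use. AT1G65270 and AGP17, long in some isoforms, had 46.1% and 44.1% of their reads below the limit.

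An intron between the stop codon and the used end was annotated in 14 of the 71 genes (19.7%; 11.2 to 30.9%), in 79 of the 192 (41.1%; 34.1 to 48.5%) and in 234 of the 7738 other genes (3.02%; 2.65 to 3.43%). A longer 3′-UTR has more room for an intron, and this was not separated from the other differences. The intron lay at least 50 nt after the stop codon in 9 of the 71 genes, 63 of the 121 and 60 of the other genes. Among the 14, ECT2, a reader of N6-methyladenosine in mRNA, had 171 reads and 2 introns in a used 3′-UTR of 1005 nt. These introns lie 173 and 314 nt after the stop codon of the named isoform. From the stop codon of the other coding isoforms of ECT2 the same end lay 526 nt downstream. The 479 nt before that are coding sequence there, so in those isoforms both introns lie before the stop codon. With the isoform of the last stop codon, 18.3% of the 71 genes had an intron in the used 3′-UTR. RbcX2, a chaperone in the assembly of Rubisco, had all of its 186 reads from 654 to 712 nt, in 1 site, with an intron 375 nt after the stop codon. MOS11, which acts in mRNA export, had all of its 48 reads from 888 to 933 nt, with an intron 36 nt after the stop codon.

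Genes that are long in some isoforms show how far the named isoform sets the value. The longest value of all, 2575 nt with 85 reads, belonged to AT3G49220, of the plant invertase and pectin methylesterase inhibitor family, with an intron 1707 nt after the stop codon of the named isoform. From the stop codon of its 2 other isoforms the same end lay 170 nt downstream, with 82 and 71 reads. PIP2E, a plasma membrane aquaporin, had the most reads of the 192 genes. Its named isoform had 1094 reads with a length of 1075 nt, and the other had 1076 reads with a length of 238 nt. AUX1, the auxin influx carrier, had 1162 nt with 54 reads and 342 nt with 47 reads. In these 3 genes the read numbers of the isoforms were nearly alike while the lengths were far apart, and the reads do not say which isoform they came from.

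IAA7, a repressor of auxin response, had 688 nt with 395 reads, or 203 nt with 363 reads from the other isoform. CDC25, a small phosphatase, had 508 nt with 413 reads, or 92 nt with 362 reads. FRO6, a ferric reductase, had 918 nt with 283 reads, or 233 nt with 266 reads. AT5G19590 had 737 nt, or 201 nt from another isoform, and AT5G08650 had 487 nt, or 88 nt. LARP1c, a La-related RNA-binding protein, had 1194.5 nt, or 356 nt. The list ends with MAMI, which had 1041 nt or 234 nt, and LNG2, which had 1009 nt or 175 nt.

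U made up 35.2% of all used 3′-UTR bases of the 71 genes, against 38.9% in the other genes, and G made up 20.8% against 17.7%. Distances before the end are counted here from the most used end, which in some of the 71 genes lies before 450 nt. In the last 100 nt the median was 41.0% U in the 71 genes (interval up to 43.0%) and 41.0% in the other genes. In the first 100 nt after the stop codon it was 32.0% (28.0 to 34.0%) in the 71 genes, against 38.0% in the other genes, whose shorter 3′-UTRs place these bases nearer to their end. At 251 to 300 nt before the end, the mean was 33.6% U in 68 of the 71 genes, 25.9% in 120 of the 121 genes long in some isoforms and 31.7% in the 629 other genes that reach so far. At the same distance from the end, the 71 genes and the other genes differed by at most 2.72 percentage points in any 50-nt bin up to 450 nt, and from 201 to 350 nt before the end the 71 genes had more U (33.0 to 34.6%, against 30.8 to 33.9% in the other genes).

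**Figure D5:**
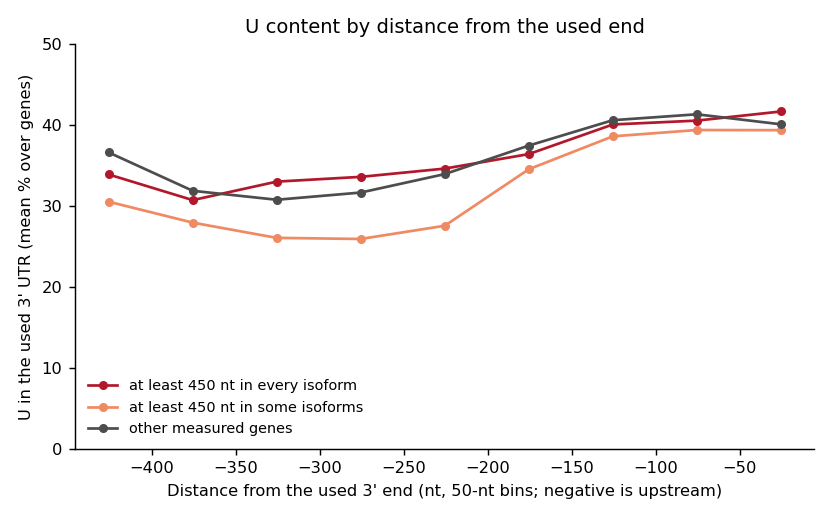
Mean U content (%) of the used 3′-UTR in 50-nt bins by distance from the most used end (nt, negative upstream), for genes long in every isoform, genes long in some isoforms and the other genes that reach the bin. The 3 groups lie close together in the last 150 nt, and farther upstream the genes long in some isoforms lie lowest, at 25.9% for 251 to 300 nt.

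Occurrences of short motifs were counted per kb, because the used 3′-UTRs differ in length. TGTANATA, the letters that Pumilio proteins recognise, occurred 0.353 times per kb in the 71 genes and 0.345 times in the others. In all, 13 of the 71 genes (18.3%) had at least 1 copy, against 5.97% of the other genes. HSD2, RR3 and BGAL1 each had 1 copy and AT5G16110 had 2. ATTTA, the core of AU-rich elements of animal mRNAs, occurred 1.81 times per kb against 2.51. TTGTA, which can overlap TGTANATA, occurred 2.78 times per kb against 3.85. The motifs ATTTA and TTGTA, rich in U, were thus less dense over the whole of the long 3′-UTRs. These counts were not matched for distance from the end. In the last 100 nt, TTGTA was found in 53.5% of the 71 genes, in 37.2% of the 121 genes long in some isoforms and in 38.3% of the other genes.

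The genes had few other features in common in the annotation. The coding sequence had a median of 1140 nt in the 71 genes (858 to 1503 nt) and 948 nt (930 to 966 nt) in the other genes, and the number of exons had a median of 4 in both. The used 3′-UTR overlapped an annotated gene on the opposite strand in 10 of the 71 genes (14.1%; 6.97 to 24.4%) and in 12.2% of the other genes. EBF2 overlapped AT5G25340 in this way and MOS11 overlapped AT5G02760. BGAL1, a beta-galactosidase, did not overlap another gene and had all of its 292 reads in 1 site of 397 to 542 nt.

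The lists of related genes are set beside all 7930 genes, of which 192 were included (2.42%) and 71 were long in every isoform (0.895%), with a median used length of 179 nt. Of 14 measured SR proteins, which bind exons in splicing, 3 were included (21.4%), and none of them was long in every isoform. SR30 had 1271 nt with 62 reads and 269 nt from another isoform, SR34 had 634 nt and 227 nt, and SR45 had 609 nt and 256 nt. SR45a, a relative not on that list, had 1022 nt and 175 nt. Of 6 measured clock genes LUX was the 1 included. None of the 5 genes of nonsense-mediated decay and termination, the 5 of mRNA 3′-end processing, the 1 of RNA silencing, the 10 of light signalling or the 6 of auxin receptors and response factors was included. UPF1, the helicase of nonsense-mediated decay, had 365 nt with 42 reads.

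Lists were also made from the words of the product names, which can miss genes of a class that are named in other words. Of 126 RNA-binding proteins 10 were included (7.94%), 5 of them long in every isoform (3.97% of the list; AT1G33470, AT3G07810, AT1G76460, AT3G20890 and AT3G45630), with a list median of 195 nt. AT1G33470 had the longest of these, 1108 nt with 31 reads. Of 354 transcription factors 8 were included (2.26%), 4 of them long in every isoform (1.13%), among which HSFB2B, a heat shock factor, had 461 nt with all of its 54 reads in 1 site. Of 316 genes with kinase in their name 11 were included (3.48%), and 3 were long in every isoform (0.949%). Of these 3, AT2G32710 is named a cyclin-dependent kinase inhibitor and is no kinase. Of 167 genes matched as transporters 3 were included, none in every isoform. PIN3, an auxin efflux carrier that is long in every isoform, was not matched. None of 13 genes matched as cytosolic ribosomal proteins and none of 60 matched as photosystem and light-harvesting genes was included. Genes of these classes that are named in other words were not counted, so some can be among the included genes. The photosystem and light-harvesting genes had a median of 121 nt. Of 159 ubiquitin ligase and F-box genes 1 was included, AT1G30200, because EBF1 and EBF2 are written in another way in the annotation and were not matched.

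The 8 genes whose reads ran past the annotated transcript included ROC1, a cyclophilin, with all of its 4316 reads beyond that end. BRH1, a brassinosteroid-responsive RING-type protein, had 508 such reads of 508, SAP5 had 146 of 146 and CRF6, a cytokinin response factor, had 62 of 62. CLE41, a peptide precursor of vascular development, had 80 of 83. AT1G52720 had 235 of 238, AT5G05750 had 40 of 44 and AT4G07825 had 38 of 40. In these genes the transcript that the reads were aligned to was longer than the annotated one, and no length is given.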

How the data were processed

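Poly(A)-seq was performed on total RNA of Col seedlings, which was digested with RNase T1, bound to oligo(dT) and ligated to a 3′ adaptor. The authors trimmed the random bases, the adaptor and the tail and aligned the reads with Bowtie2. A bases of the transcript next to the tail cannot be told from it and were trimmed too, so a used length can be too short by these bases. TAIR10 is named as the build. Removal of duplicates is not stated in the sources used here for poly(A)-seq. The deposited file gives the start and end of each read in nt on a transcript, and the mapping quality as a score. Groups follow the submitters' sample title.

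Here, transcripts were matched by name to RefSeq TAIR10.1, and 401 transcripts (19101 plus-strand reads) were absent from it. For each gene the coding transcript with the most plus-strand reads was used (at least 20 reads; ties to the lowest name). The used length is the median read end minus the end of the stop codon. Each end was then put on the genome and measured from the stop codon of every coding isoform that holds it. The rule and the lists were chosen with earlier results of these data known. The genes named were the 12 longest, the 8 with the most reads, those on the lists written by gene, 3 on each side of 450 nt, and 6 each by reads among those with an intron in the used 3′-UTR, by share of reads below 450 nt (at least 50 reads) and by fall with another isoform. Exceptions are stated. Shares have 95% Clopper-Pearson intervals and medians have intervals from order statistics. Both cover counting error or the spread over genes only, since several reads can be copies of 1 molecule and no molecular identifiers were used. The 71 genes had a median of 39 reads and of 23 distinct reads. No test was made, because there was 1 library. Scripts were tested on simulated data. Alternatives for mapping quality, identical reads, read minimum, the end used, the isoform, the length limit, the joining of ends and the hexamer window were computed. The scripts ran under Python 3.11.15 with matplotlib 3.10.9, pandas 2.3.3, scipy 1.17.1 and numpy 2.4.6.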

Additional observations from a re-analysis of the deposited data

Results flagged for a closer look

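Reads listed antisense to the transcripts of the genes with long used 3′-UTRs were not part of the lengths. There were 88 such reads on 24 of the 200 transcripts, where 3 is the limit that a count of 0 allows. They made up 0.369% of the reads on these transcripts (95% Clopper-Pearson interval, 0.296 to 0.455%). Over the whole library the antisense share was 4.49%. The 200 transcripts were chosen with at least 20 plus-strand reads each, which favours a low antisense share, and the whole library was not chosen in this way. The lower share is therefore not shown to belong to long 3′-UTRs, and a comparison with the other measured genes was not made. AT2G07706 had 14 antisense reads, AT1G76460 had 11, AT5G65480 had 10, HSFB2B had 9 and MOS11 had 7. MOS11, HSFB2B and AT5G65480 have an annotated gene on the opposite strand over their used 3′-UTR, and the part of these neighbours in the antisense reads was not tested.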

How the results depend on the processing

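Alternatives were computed for the 192 genes and, chosen after seeing the data, for the 71 genes long in every isoform. The number of genes was 192 in the values above, and 49 of 5364 measured genes (0.913%) with reads scored 10 or more in mapping quality, 118 of 5555 (2.12%) with identical reads counted once, 347 of 11042 (3.14%) with a minimum of 10 reads, 85 of 4437 (1.92%) with a minimum of 50 reads and 71 with the isoform of the last stop codon. Where several isoforms had that stop codon the one with the shortest length was taken, and with the longest 81 of the 192 genes met the rule. Genes outside the 192 were not measured again from another isoform for these 2 counts. Limits of 400 and 500 nt and the most frequent end kept it within 1.5 times (280, 132 and 207 genes). The median length of 583.5 nt became 503 nt with the mapping quality, 499 nt with the last stop codon, 490 nt at a limit of 400 nt and 664 nt at 500 nt. The share with an intron in the used 3′-UTR (41.1%) became 16.3% with the mapping quality, 18.3% with the last stop codon and 50% at a limit of 500 nt. The share of reads in the main site (88.7%) became 83.3% with the mapping quality, 95.1% with a minimum of 50 reads, 80.8% with the last stop codon and 70.0% when ends within 10 nt were joined. The share with AATAAA stayed within its interval under every alternative, from 11.2 to 16.9%. The 71 genes (0.895%) became 40 (0.720%) with identical reads counted once, 124 (1.12%) with a minimum of 10 reads and 29 (0.654%) with a minimum of 50 reads. These shares are of the genes measured at each setting. At limits of 400 and 500 nt they were 126 (1.59%) and 35 (0.441%), and their median of 499 nt became 458 nt and 617 nt. With reads scored 10 or more in mapping quality they were 49 (0.913%), and with the most frequent end 78 (0.984%). The counts fall where fewer genes keep enough reads by construction, and otherwise the cause was not tested. No paired analysis was possible because the values rest on a single library. Depth sets the smallest site that can be seen: in a gene of 20 reads, a site with 2 reads is the smallest counted.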
